A study of Mus musculus with 4 samples.

Results

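Nos2, Ptgs2, Ptges and Irg1 encode 4 enzymes with which activated macrophages make nitric oxide, prostaglandin E2 and itaconate. Trimethylation of lysine 4 on histone H3 (H3K4me3), a mark of active promoters, was examined at these genes in 4 deposited peak lists, by taking all peaks that overlap 1 fixed mm9 window around each gene. The windows held 15 of the 64314 peaks in the lists, and these joined into 8 of 18786 regions. The genes were selected on the peak calls with and without LPS in these same lists, together with their known roles, so their peaks are given as a description, with no test.

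The lists came from chromatin immunoprecipitation and sequencing of primary bone marrow-derived macrophages on day 7 of differentiation, on a mixed background of C57BL/6 (94%) and 129/Ola (6%). The 4 groups were Wbp7+/- untreated, Wbp7+/- treated for 4 h with lipopolysaccharide (LPS, 10 ug/ml), Wbp7-/- untreated, and Wbp7-/- treated in the same way. Wbp7, also called Kmt2b, encodes a methyltransferase of lysine 4 of histone H3. The labels name the gene in 3 ways, as Wbp7 in the genotype, MLL2 in the titles and MLL4 in the source names, and the genotype was followed here. LPS, from the outer membrane of bacteria, activates macrophages through the receptor Tlr4. The comparison group therefore had 1 disrupted copy of Wbp7 and was not wild type. How the allele was made, the sex and age of the mice and the number of mice behind a library are not stated. Each group held 1 library, so differences cannot be checked against replicates, and no error or p-value was computed. The label of the LPS-treated Wbp7+/- library gives 4 h, but the first line of its file gives 24 h, so its time with LPS is uncertain. Results on LPS within Wbp7+/- cells are set beside those of the Wbp7-/- lists. Every comparison of the genotypes after LPS uses this library. In those, genotype and a possible difference in LPS time cannot be told apart.

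Inducible nitric oxide synthase, the product of Nos2, makes nitric oxide from arginine. Cyclooxygenase 2, the product of Ptgs2, converts arachidonic acid to prostaglandin H2, and the prostaglandin E synthase encoded by Ptges turns that into prostaglandin E2. Irg1, named Acod1 in RefSeq, encodes the enzyme that makes itaconate from cis-aconitate, an intermediate of the citric acid cycle. All 4 are known as genes that macrophages induce in response to LPS.

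The 250 bases before the annotated start are shown for the 3 genes with an entry in the RefSeq promoter table, Ptgs2, Ptges and Irg1, because the mark is found at promoters and these differ in base composition. Nos2 had no entry. Sequences are from RefSeq, build GRCm38.p6, 5′ to 3′ along the gene. Their coordinates are of that build and cannot be set against the mm9 peaks, so whether each stretch lies within a peak was not analysed here. Capitals mark matches to any of 8 motifs, searched on both strands: TATA box (TATAAA), E-box (CACGTG), ATF/CREB core (ACGTCA), C/EBP (TTGCNNAA), GC box (GGGCGG), AP-1 (TGANTCA), ETS core (AGGAAG) and NF-kB by its 10-letter consensus.
Ptgs2, chr1:150099781-150100030, + strand: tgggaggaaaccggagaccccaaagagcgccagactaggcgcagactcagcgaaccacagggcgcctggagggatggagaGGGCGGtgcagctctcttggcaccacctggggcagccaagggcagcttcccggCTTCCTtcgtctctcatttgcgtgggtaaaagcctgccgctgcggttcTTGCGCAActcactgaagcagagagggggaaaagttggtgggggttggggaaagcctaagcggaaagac
Ptges, chr2:30903298-30903547, - strand: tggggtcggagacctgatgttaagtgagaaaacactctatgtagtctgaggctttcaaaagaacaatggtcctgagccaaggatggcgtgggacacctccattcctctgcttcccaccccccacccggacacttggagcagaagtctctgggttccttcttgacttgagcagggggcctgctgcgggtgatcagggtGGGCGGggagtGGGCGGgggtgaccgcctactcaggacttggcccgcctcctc
Irg1, chr14:103046762-103047011, + strand: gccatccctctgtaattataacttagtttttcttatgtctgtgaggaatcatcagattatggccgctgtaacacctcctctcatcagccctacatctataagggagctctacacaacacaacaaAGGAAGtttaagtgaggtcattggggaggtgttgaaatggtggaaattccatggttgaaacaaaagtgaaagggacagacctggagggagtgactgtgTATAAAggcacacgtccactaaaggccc

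The 3 promoters differed in CpG content. The Ptgs2 stretch held 13 CpG dinucleotides, more than 68.5% of the 32851 promoters in the table, and 61.6% of its bases were G or C. The Ptges stretch held 8 CpG, with 59.6% G or C. The Irg1 stretch held 2, more than 18.8% of promoters, with 44.4% G or C, against a median over all promoters of 6 CpG and 52.4%. Irg1 had a TATA box from 28 to 23 bases before the start, a motif found in 12.4% of all promoter stretches of this length. Ptges had 2 GC boxes, from 53 to 48 and from 42 to 37 bases before the start, and Ptgs2 had 1 from 170 to 165. A GC box was found in 32.7% of promoters. The C/EBP match of Ptgs2, from 69 to 62 bases before the start, is of a kind found in 9.56% of promoters. ETS core matches lay in Ptgs2 and Irg1, and the share of promoters with 1 was 29.5%. The matches did not overlap each other. E-box, ATF/CREB, AP-1 and NF-kB letters had no match in these 3 stretches, against 6.02%, 6.47%, 6.75% and 7.25% of promoters with 1. A match is a description of the letters and shows no binding.

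The lists held 17316 and 17313 peaks in untreated and LPS-treated Wbp7+/- cells and 14599 and 15086 in Wbp7-/- cells. Each peak has a score that the authors deposited from the peak caller, which grows with enrichment and with sequencing depth. Read numbers are unknown, and how far depth enters the called widths was not tested. Between 8950 and 9695 peaks per list reached a score of 3100 or above, called the ceiling here. Scores rank peaks within a list. Where the text says that a peak was below the ceiling in one list and at it in another, the libraries' unknown depths enter as well, and this measures no change. A window without a peak means that the caller's threshold was not passed, and not that the mark was absent. More cells with the mark and more mark per cell cannot be told apart. The cell type could not be checked against its marker genes, because no mm9 gene annotation was used. For the same reason the gene names are those of the windows, and positions of peaks relative to exons, introns and transcript starts were not analysed here.

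In untreated Wbp7+/- cells 2 of the 4 windows held a peak, those of Ptgs2 and Irg1, and in untreated Wbp7-/- cells 1 did, that of Ptgs2. After LPS all 4 windows held a peak at the ceiling in both genotypes. Summed over the windows, Wbp7+/- peaks covered 3526 bp without LPS and 21469 bp with it, and Wbp7-/- peaks 1902 and 16949 bp. Of the LPS peaks in the windows, 6 of 8 in Wbp7+/- and 3 of 4 in Wbp7-/- had no overlapping untreated peak. Over the whole lists these shares were 8.95% of 17313 and 8.60% of 15086 LPS peaks. The Wbp7+/- count was 3 with peaks scoring under 100 dropped or with lists of equal length, and 2 with leading peaks alone, whereas the Wbp7-/- count was 3 in each case, so no order of the genotypes is read from it. The choice of genes used this contrast, and nothing is read from the difference. The Wbp7-/- lists alone showed a new ceiling peak at Nos2, Ptges and Irg1 and a wider one at Ptgs2. The choice of genes used these lists as well, so this is no independent support.

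**Figure D1:**
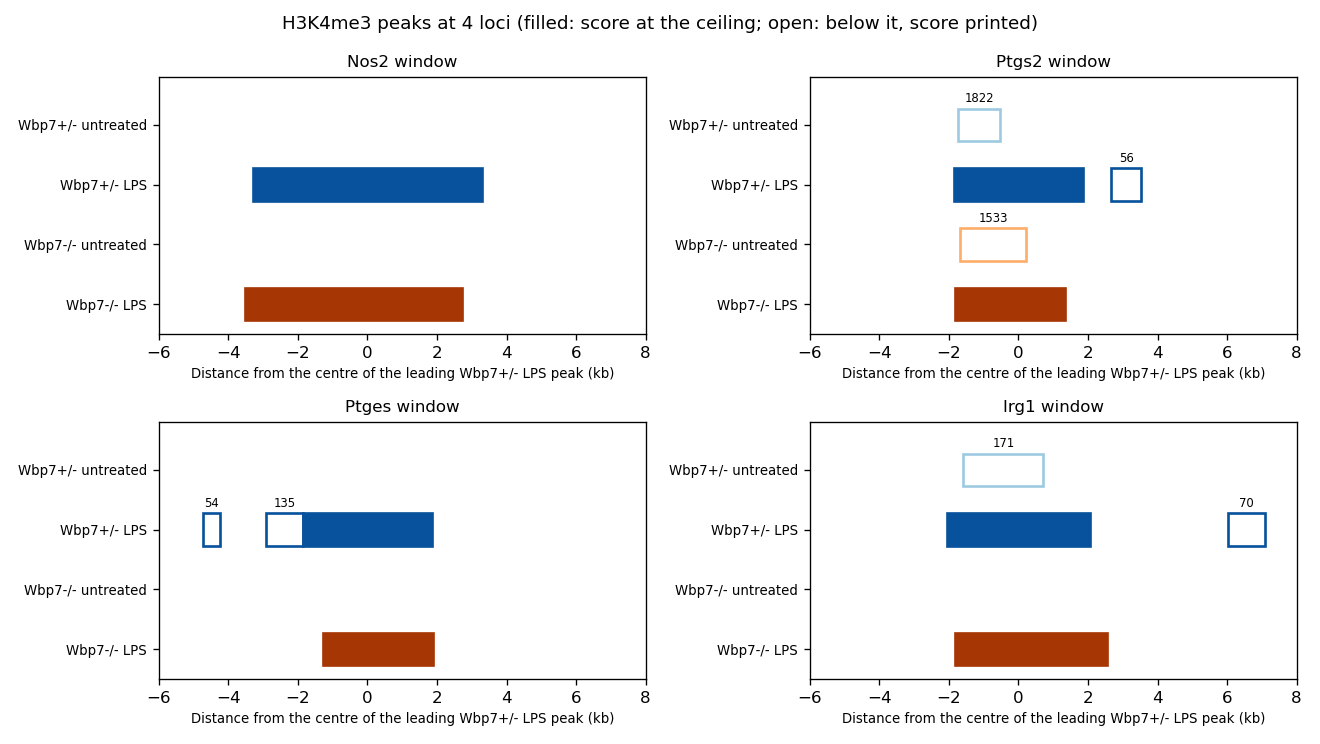
Every peak in the 4 windows, by list. The horizontal axis is the distance in kb from the centre of the leading peak of LPS-treated Wbp7+/- cells. Bars are peaks, filled where the score is at the ceiling of 3100 and open where it is below, with the rounded score above the bar. All 4 loci have a filled bar in both LPS rows and none in an untreated row.

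The Nos2 window, on chromosome 11 from 78728000 to 78776000 in mm9, had no peak in untreated cells of either genotype. After LPS 1 peak was called in each genotype, from 78733463 to 78740026 in Wbp7+/- and from 78733216 to 78739455 in Wbp7-/- cells. Their widths were 6564 and 6240 bp, and both scores were 3100. Ordered by the width of the leading LPS peak, the loci were Nos2, Irg1, Ptges and Ptgs2 in both genotypes, and the last pair differed by no more than 5 bp. In the Wbp7+/- list the peak ranked 217th by width of 17313, and in the Wbp7-/- list 262nd of 15086. Among peaks new after LPS it ranked 2nd by width in both genotypes, of 1550 and 1297. The choice of genes used the LPS contrast, so nothing is read from this rank or from those of Ptges and Irg1 below. The peak lay in the low-coordinate part of the window, and the rest of the window above it, 35974 bp in Wbp7+/- and 36545 bp without Wbp7, held no further peak. Outside the window, the nearest peaks of the LPS lists lay 87.0 to 87.2 kb below and 19.2 kb above it.

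Ptgs2 was the only one of the 4 loci with a peak in all 4 lists, a class that held 65.4% of all regions. Its window runs on chromosome 1 from 151940000 to 151962000. In untreated cells the peak ran from 151946507 to 151947723 in Wbp7+/- (1217 bp, score 1822.46) and from 151946560 to 151948461 in Wbp7-/- (1902 bp, score 1532.73). Neither untreated peak was at the ceiling. Of the peaks in their own lists, 39.63% and 32.82% scored lower. After LPS the peak ran from 151946393 to 151950090 in Wbp7+/- (3698 bp) and from 151946420 to 151949578 in Wbp7-/- (3159 bp), both at the ceiling. A peak at Ptgs2 was thus called before LPS, and the called peak was wider after it in both genotypes.

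The Ptgs2 peak was 3.04 times as wide after LPS in Wbp7+/- and 1.66 times in Wbp7-/- cells. A higher ratio was seen at 36 of the 15039 regions shared by the Wbp7+/- lists, and at 321 of 13092 in Wbp7-/-. The choice of genes used the LPS contrast, so nothing is read from this place among the regions. The median ratio over these regions was 0.983 in Wbp7+/- and 0.977 in Wbp7-/-, and 4.33% and 3.64% of regions were at least 1.5 times as wide after LPS. The change was at 1 edge. In Wbp7+/- cells the low-coordinate edge moved outward by 114 bp and the high-coordinate edge by 2367 bp, and in Wbp7-/- cells the shifts were 140 and 1117 bp. RefSeq places Ptgs2 on the + strand, so the edge that moved more lies in the direction of transcription. How often the larger shift lies on that side over all regions was not counted. Over regions with a single peak in both lists, the median size of a shift of the high-coordinate edge was 81 bp in Wbp7+/- and 86 bp in Wbp7-/-. The untreated peak was the narrower one in Wbp7+/- cells. The difference between the genotypes in this ratio was not tested. Of the regions that were below the ceiling untreated and had a peak in both lists, 3.84% in Wbp7+/- and 4.41% in Wbp7-/- reached the ceiling after LPS, and Ptgs2 was among them in both.

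**Figure D2:**
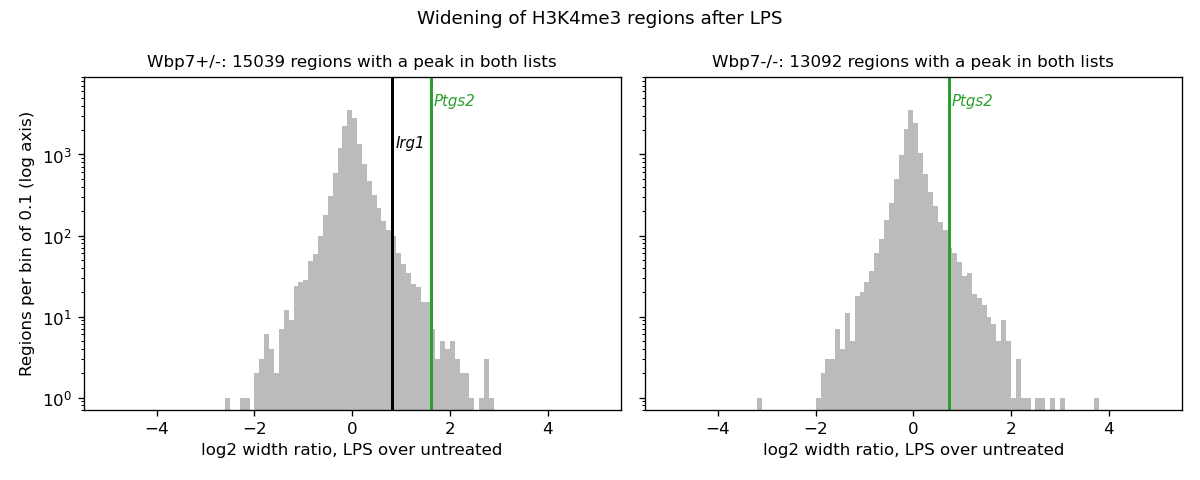
Distribution of the log2 ratio of region width after LPS to width untreated, over all regions with a peak in both lists of a genotype (15039 in Wbp7+/-, 13092 in Wbp7-/-). The vertical axis is the number of regions per bin, on a log scale. Lines mark Ptgs2, at ratios of 3.04 and 1.66, and Irg1 in Wbp7+/- cells, at 1.77. All 3 lines lie in the upper tail. The genes were chosen on the calls with and without LPS, so nothing is read from this place.

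Ptges, which acts after Ptgs2 in prostaglandin E2 synthesis, had no untreated peak in either genotype. Its window runs on chromosome 2 from 30743000 to 30765000. After LPS the leading peak ran from 30755616 to 30759314 in Wbp7+/- (3699 bp) and from 30756190 to 30759353 in Wbp7-/- cells (3164 bp), both at the ceiling. The pattern of presence was that of Nos2 and not that of Ptgs2, with a narrower peak than at Nos2. Among peaks new after LPS the leading Ptges peak ranked 10th by width of 1550 in Wbp7+/- and 17th of 1297 in Wbp7-/-. Nos2 and Ptges were 2 of 329 regions with a peak in both LPS lists and neither untreated list, which make up 1.75% of all regions. Median widths over those 329 were 981 bp in Wbp7+/- and 934 bp in Wbp7-/-, and both loci were wider than that. Of the 329, 9 reached the ceiling in each LPS list, Nos2 and Ptges among them. The median widths of those 9 were 4515 and 4445 bp, above Ptges and below Nos2 in both genotypes. Since the genes were chosen on the LPS contrast, nothing is read from their membership of this class or their widths within it.

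Irg1 was the only locus of the 4 whose presence before LPS differed between the genotypes. Its window runs on chromosome 14 from 103440000 to 103465000. In untreated Wbp7+/- cells a peak of 2309 bp lay from 103446024 to 103448332 with a score of 170.98, and untreated Wbp7-/- cells had none. After LPS the peak ran from 103445572 to 103449656 in Wbp7+/- (4085 bp) and from 103445788 to 103450173 in Wbp7-/- (4386 bp), both at the ceiling. The untreated Wbp7+/- peak was low in score but broad. It was wider than 98.74% of the 3085 peaks of its list scoring from 100 to under 500, whose median width was 860 bp. Among those 3085 peaks, 46.8% had no peak in untreated Wbp7-/- cells, so a missing call at this score was common. Nearly all of those peaks were narrower than that of Irg1, and the share among peaks of its width was not counted. Regions missing in the untreated Wbp7-/- list alone made up 2.41% of all regions.

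With LPS the Irg1 peak of Wbp7+/- cells was 1.77 times as wide, a ratio exceeded by 332 of 15039 regions. As for Ptgs2, the choice of genes used this contrast, and nothing is read from that place. Its low-coordinate edge moved outward by 452 bp and its high-coordinate edge by 1324 bp. RefSeq places Irg1 on the + strand, so here too the larger shift was on the side toward which the gene is transcribed. Without a share over all regions, nothing is read from that side. In Wbp7-/- cells no ratio exists, because there was no untreated peak. The Irg1 peak ranked 9th by width among the 1297 peaks new after LPS in that genotype.

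**Figure D3:**
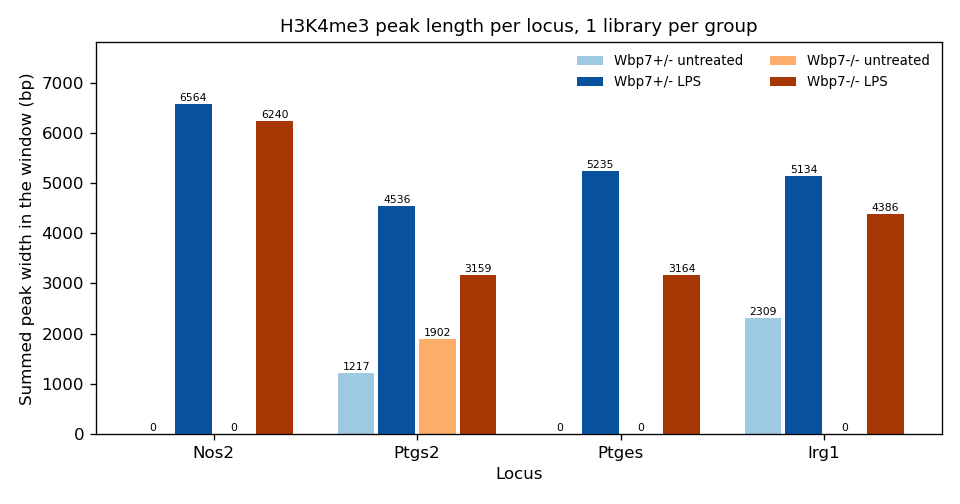
Summed width in bp of the peaks in each window, by list, with 1 library per group. Bars start at 0 and the value is printed above each. Both LPS bars exceed the untreated bars at every locus. With all peaks of a window summed, the Wbp7+/- LPS bar is the higher of the LPS pair at all 4. At Irg1 that order rests on a weak peak beside the leading one, of width 1049 and score 69.82. The leading Irg1 peak alone was wider without Wbp7 (4386 against 4085 bp), while those of Nos2, Ptgs2 and Ptges were narrower. Genotype and the uncertain LPS time of the Wbp7+/- list cannot be told apart in these pairs.

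After LPS the leading peaks of the genotypes were set against each other. The LPS time of the Wbp7+/- list is uncertain, so genotype and LPS time cannot be told apart here. The ratio of the Wbp7-/- to the Wbp7+/- width was 0.951 at Nos2, 0.854 at Ptgs2, 0.855 at Ptges and 1.07 at Irg1. None of the 4 passed a factor of 1.5 in either direction, which 5.35% of the 13149 regions in both LPS lists did as narrower and 4.07% as wider in Wbp7-/- cells. The median over those regions was 1.03, and the middle 90% lay between 0.656 and 1.45. Ptgs2 and Ptges were thus below the median but inside that range, with 15.21% and 15.3% of regions lower. With peaks of a list joined within 1 kb, the ratio was 0.589 at Ptgs2 and 0.665 at Ptges, past the factor of 1.5, and with all peaks of a window summed that of Irg1 turned to 0.854, since the Wbp7+/- list held more peaks beside the leading ones. In untreated cells, where Ptgs2 alone had a peak in both genotypes, its Wbp7-/- peak was 1.56 times as wide. The nearest region below the Ptgs2 window with a peak in all 4 lists, from 151806065 to 151809357, lay 130.6 kb away. Its untreated ratio was 1.51, and it was 1.63 times as wide after LPS in Wbp7+/- and 0.970 times in Wbp7-/- cells. The nearest such region above the window, 276.7 kb away, had an untreated ratio of 1.02. Over the nearest such regions on either side of the 4 windows, 8 in all, the median was 1.03, with a range from 0.958 to 1.51. Of 13030 regions, 4.17% were at least 1.5 times wider in untreated Wbp7-/- cells.

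The edges of the leading LPS peaks were then compared between the genotypes, with the same limit on LPS time. At Ptgs2 the low-coordinate edges were 27 bp apart and the high-coordinate edges 512 bp apart. At Ptges, which RefSeq places on the - strand, the high-coordinate edges were 39 bp apart and the low-coordinate edges 574 bp apart. At Irg1 the low-coordinate edges were 216 bp and the high-coordinate edges 517 bp apart, and both edges of the Wbp7-/- peak lay at higher coordinates. The edge that differed more was the one in the direction of transcription at these 3 genes, with the Wbp7-/- peak shorter at Ptgs2 and Ptges and longer at Irg1. How often this holds over all regions was not counted, so nothing is read from the side. At Nos2, whose strand was not taken from the tables used here, the low-coordinate edges were 247 bp apart and the high-coordinate edges 571 bp apart, with both edges of the Wbp7-/- peak at lower coordinates. For comparison, over the 11877 regions with a single peak in both LPS lists, the median distance was 114 bp at either edge. The smaller distances at Ptgs2 and Ptges were below that median. Those at Irg1 and Nos2 were above it, but 72.19% and 76.67% of regions had a smaller distance at that edge. For the larger distances this share was 93.44% at Nos2, 91.8% at Ptgs2, 93.77% at Ptges and 92% at Irg1. With 1 library per group, scatter between libraries could not be measured, so no kinds of genotype difference are read from these edges.

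**Figure D4:**
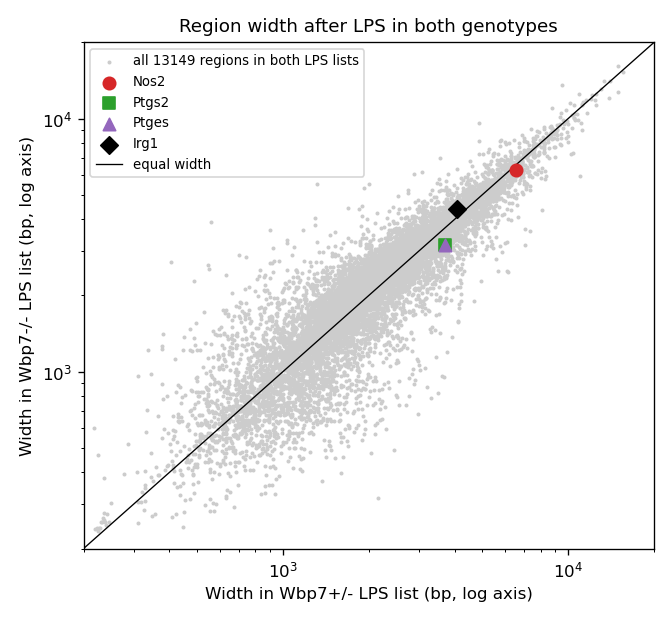
Width in bp of each region after LPS in Wbp7+/- (horizontal) and Wbp7-/- cells (vertical), both on log axes, for the 13149 regions with a peak in both lists. Grey points are regions, the line marks equal width and the 4 large symbols are the leading peaks. The symbols of Ptgs2 and Ptges nearly coincide below the line, Nos2 lies just below it and Irg1 just above. The LPS time of the Wbp7+/- list is uncertain.

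Beside the leading peaks, 4 minor peaks were called in the windows, all in the LPS-treated Wbp7+/- list. At Ptgs2 a peak of 838 bp with a score of 55.62 ran from 151950916 to 151951753, with 825 bases between it and the leading peak. At Irg1 a peak of 1049 bp with a score of 69.82 ran from 103453644 to 103454692, with 3987 bases between. The Ptges window held 2, and 1 of them adjoined the leading peak. That peak was 1055 bp wide with a score of 135.05, from 30754556 to 30755610, and 5 bases separated it from the leading peak. The other was 481 bp wide with a score of 54.43, from 30752734 to 30753214. All 4 lay on the side of the leading peak toward which RefSeq has the gene transcribed, which depends on the window edges. The share of such weak peaks on that side over the whole list was not counted, so nothing is read from it. Within 50 kb outside the windows, 2 more regions had a peak in this list alone, with scores of 52.6 and 118.5. Both lay on the opposite side of Irg1, the nearer 1.1 kb from the window. Of Wbp7+/- LPS peaks scoring under 100, 64.0% had no Wbp7-/- LPS peak and 27.9% lay within 5 kb of a ceiling peak. For scores from 100 to under 500 the shares were 45.3% and 22.8%. These peaks also carry the uncertain LPS time of their list.

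Regions just outside the windows were also described. Within 50 kb of a window lay 13 regions, of which 7 were around Irg1, 4 around Ptges and 1 each around Nos2 and Ptgs2. Of the 13, 7 had a peak in all 4 lists and 2 in both LPS lists alone, against 65.4% and 1.75% of all regions. The windows were chosen for LPS-dependent peaks, and nothing is read from these counts. Above the Ptges window, 3.7 kb from its edge, a region from 30768691 to 30771259 had peaks in both LPS lists only. Its Wbp7+/- peak was 2323 bp wide (score 1805.26) and its Wbp7-/- peak 2490 bp (score 1483.68). In RefSeq order the protein-coding neighbours of Ptges are Prrx2 and Tor1b, and the region was not assigned to a gene.

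Below the Irg1 window, 24.6 kb from its edge, a region from 103411420 to 103415428 had a narrow, low-scoring peak in untreated cells and a broad ceiling peak after LPS in both genotypes. Its width went from 721 to 3433 bp in Wbp7+/-, with a score of 79.91 untreated, and from 791 to 4009 bp in Wbp7-/-, with a score of 74.01 untreated. These are ratios of 4.76 and 5.07, above those of Ptgs2. Between this region and the window lay 4 weaker regions, with scores of 52.6 to 168.41 in LPS-treated Wbp7+/- cells, of which 2 also had a peak in Wbp7-/- cells after LPS. Of these 2, the region from 103431665 to 103433664, 6.3 kb from the window, was present in the same lists as the Irg1 peak. It had a peak in untreated Wbp7+/- cells (487 bp, score 130.66) and none in untreated Wbp7-/- cells. The nearest of the 4 weaker regions was 1.1 kb outside the window.

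Around Ptgs2 the region within 50 kb, from 152010297 to 152013101, lay 48.3 kb above the window and was present in the same lists as Irg1. It was 1119 bp wide in untreated Wbp7+/- cells (score 63.59), 2805 bp after LPS in that genotype, 2345 bp after LPS in Wbp7-/- cells, and had no peak in untreated Wbp7-/- cells. The single region near Nos2, 19.2 kb above its window, was at the ceiling in all 4 lists, with widths of 3633 to 4042 bp. Over the nearest regions with a peak in all 4 lists on either side of each window, 8 in all, the median width ratio of LPS to untreated was 1.13 in Wbp7+/- and 1.11 in Wbp7-/-, with ranges of 0.983 to 4.76 and 0.970 to 5.07. The median of Wbp7-/- to Wbp7+/- after LPS was 1.16, with a range from 0.896 to 1.20, and the ratios of the 4 leading peaks were 0.854 to 1.07.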

How the data were processed

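H3K4me3 peak lists were used, 1 for each of 4 libraries, grouped by their titles. Cells were fixed with 1% formaldehyde for 10 min and 10 ug of antibody was used, per the labels' protocols. Reads were aligned with Bowtie to mm9, per the submitters' processing notes, and peaks were called with MACS against input, per the file headers. Versions and read numbers are not stated there. The score is as deposited by the authors; by MACS convention it is -10 times the log10 of a p-value, so that 50 stands for 1e-05, and a pile-up at 3100 was treated as a ceiling. Peak starts and ends were deposited as BED coordinates and are given counted from 1.

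Peaks overlapping a window by 1 bp or more were taken, and overlapping peaks of the 4 lists were joined into regions. Widths within a region were summed per list. The leading peak of a window is the one with the highest score, then the widest. Every peak in a window was to be described, and the nearest outside it; the regions within 50 kb were added later. The 4 genes, windows and lists were chosen with earlier results of these data known. Pathway genes beyond the 4 and cell type markers were planned and not run, because they need an mm9 gene annotation. All 4 symbols matched the RefSeq gene table of GRCm38.p6, Irg1 as a synonym, and 3 matched the promoter table. The code for overlap and width counts was run on an altered copy of the untreated Wbp7+/- list. Some peaks were removed, the rest moved by a few bases, and some of those widened. Peak edges differed more than that between the real lists, so this checks the code alone. Alternatives were a score minimum of 100, lists of equal length, other overlap rules, joining within 1 kb, other window edges and leaving out a list. With 1 library per group no test was run. Python 3.11.15, pandas 2.3.3, numpy 2.4.6 and matplotlib 3.10.9 were used.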

Additional observations from a re-analysis of the deposited data

How the results depend on the processing

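Of 103 alternative values, 80 kept their value or stayed within 1.5 times a count, 22 moved and 1 turned direction. Part of the 80 could not change. Every peak lay whole within its window, so clipping at the edges and requiring whole peaks altered nothing. Windows without a peak could not change when peaks were dropped or clipped. The share of unchanged values is therefore no measure of stability. Leading peaks alone and summed widths per window were chosen after the data were seen. LPS gains in Wbp7+/- windows numbered 6, and 3 both with peaks under 100 dropped and with lists of equal length, and 2 with leading peaks alone. Peaks in the LPS-treated Wbp7+/- windows numbered 5 in place of 8 under either of the first 2 settings. Dropping peaks under 100 also gave summed widths there of 3698 bp at Ptgs2, 4754 bp at Ptges and 4085 bp at Irg1. Windows extended by 5 kb took in neighbouring regions. They gave 2 peaks in untreated Wbp7-/- cells, 6995 bp at Ptges in LPS-treated Wbp7+/- and 5654 bp in LPS-treated Wbp7-/-, and at Irg1 4689, 9893, 2399 and 7503 bp in untreated and LPS-treated Wbp7+/- and untreated and LPS-treated Wbp7-/- cells. The width ratio of Ptgs2 with LPS in Wbp7+/- was 4.41 with peaks joined within 1 kb and 3.73 by summed width, and that of Irg1 was 2.22 by summed width. After LPS the ratio of Wbp7-/- to Wbp7+/- was 0.589 and 0.696 at Ptgs2 and 0.665 and 0.604 at Ptges with peaks joined and by summed width. Of these, Ptgs2 joined, Ptges joined and Ptges summed passed a factor of 1.5. At Irg1 it turned from 1.07 to 0.854 by summed width. The minor peaks of the LPS-treated Wbp7+/- list, whose LPS time is uncertain, make these differences by construction. No paired analysis was possible because each group held 1 library and no test was run. Depth is unknown, and groups of 1 allow no check for outlying samples.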
